A study of Rattus norvegicus with 2 samples.

Results

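Inflammasome components are the proteins that turn the detection of microbial products or cell damage into release of inflammatory cytokines and, often, into lytic cell death. They are described here by 6 genes, *Nlrp3*, *Pycard*, *Casp1*, *Casp4*, *Gsdmd* and *Il18*, which were chosen by symbol among the 25399 genes of the deposited gene list, and each of the 6 matched 1 identifier. Each gene was followed through all 11 clusters of the authors' deposited cell assignments, in an LPS library and a control library of neonatal rat cardiac cells. The study's text names fewer clusters.

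Hearts of Sprague-Dawley rats aged 1 to 3 days, male and female pooled, were digested, and a Percoll gradient was used to enrich intrinsic cardiac adrenergic (ICA) cells, which make catecholamines within the heart. The cultured cells received 1 µg/mL lipopolysaccharide (LPS, a component of the outer membrane of Gram-negative bacteria) or saline as the control, each for 2 h, and 1 single-cell library was made per condition. The libraries held 11531 control cells with a median of 12479 unique molecular identifiers (UMIs) per cell and 12689 LPS cells with a median of 9432.

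In the classical view of this pathway, a first signal such as LPS raises transcription of the sensor and of the interleukin-1β precursor. A second signal then lets the sensor assemble with the adaptor into a platform that activates caspase-1. Caspase-1 matures interleukin-1β and interleukin-18 and cleaves gasdermin D, whose fragment forms pores in the plasma membrane. Caspase-4, called caspase-11 in mice, binds LPS within the cell and cleaves gasdermin D without that platform. In the heart, resident macrophages, fibroblasts and endothelial cells have all been described as sites of inflammasome activity. RNA levels, which are what was measured here, do not show whether the platform assembled or whether any protease was active.

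Levels are given in CPM: the UMIs of a gene in a cluster, summed, per 1000000 UMIs of that same cluster. A ratio is the LPS level over the control level. Since there was 1 library per condition, no test was possible. The intervals given in parentheses (95%, exact Poisson for levels, exact conditional for ratios, Clopper-Pearson for shares of cells) cover only the error of counting. Treatment and the handling of a library cannot be told apart. A count of 0 allows up to 3 UMIs, and no ratio is given where both libraries were at or below 3.

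The labels name the samples as ICA cells, but fibroblast clusters 0, 1 and 7 made up most cells, with 6600 control and 7030 LPS cells in cluster 0 alone. Macrophages were cluster 6, with 281 control and 291 LPS cells. All 12 macrophage markers had UMIs there in the control library and 11 in the LPS library, where *Cd163* was at 0, and their summed level was 2516 CPM and 1831 CPM. The T and NK cell markers had no UMI in cluster 6, and the 3 neutrophil markers summed to 11.9 and 23.3 CPM. Cluster 6 also held all 9 fibroblast markers, at 33.3% of their cluster 0 level in the control library and 27.8% in the LPS library, so UMIs of fibroblast genes in macrophages have to be read against those shares. Clusters 4 and 5 (Endothelial, 723 and 350 control cells) and cluster 3 (ICA and Cardiomyocyte, 836 control cells) carried the markers of their names, except that *Th* was at 0 in cluster 3, while clusters 2, 8, 9 and 10 had no cell type from the authors. Of the barcodes, 194 occurred in both libraries, 1.68% of the control and 1.53% of the LPS barcodes.

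The 250 bases upstream of the start are shown for *Nlrp3* and *Pycard*, the members with the highest and the lowest ratio in macrophages. RefSeq entries on the GRCr8 build matched 4 of the 6 members, and each sequence is printed 5′ to 3′ on the strand of its gene, with motif matches in capitals. The motifs searched on both strands were the NF-kappaB consensus, the AP-1 motif TGANTCA, the interferon-stimulated response element, the interferon-gamma activated site TTCNNNGAA and the TATA box TATAAA.
*Nlrp3*, chr10:44827848-44828097, plus strand: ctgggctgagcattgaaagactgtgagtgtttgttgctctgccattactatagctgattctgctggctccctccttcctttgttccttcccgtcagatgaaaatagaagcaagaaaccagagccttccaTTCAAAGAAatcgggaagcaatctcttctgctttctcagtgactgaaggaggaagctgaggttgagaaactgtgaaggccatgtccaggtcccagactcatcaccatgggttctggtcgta
*Pycard*, chr1:192033420-192033669, minus strand: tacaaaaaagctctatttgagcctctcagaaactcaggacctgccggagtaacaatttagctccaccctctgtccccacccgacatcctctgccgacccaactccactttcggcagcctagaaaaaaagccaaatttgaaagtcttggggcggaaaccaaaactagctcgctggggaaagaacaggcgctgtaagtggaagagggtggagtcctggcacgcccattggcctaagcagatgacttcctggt
The *Nlrp3* window held 1 match, to the interferon-gamma activated site at -121 to -113 from the start, a motif present in 7.67% of 33469 promoters of this length. The *Pycard* window held no match to any of the 5 motifs. The *Casp1* window on chromosome 8 held 1 match to the interferon-stimulated response element at -28 to -19, which 3.41% of promoters have, and the *Il18* window held none. These matches are letters in a window and not sites of measured binding.

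In macrophages the 6 genes did not move together. *Nlrp3* and *Casp4* were at least 2-fold higher in the LPS library, *Pycard* and *Gsdmd* were at least 2-fold lower, and *Casp1* and *Il18* were lower by less than 2-fold. Both were past 2-fold lower in thinned cells, at 0.418 and 0.369, and *Il18* was at 0.468 as the mean of each cell's own CPM. The 2-fold calls of *Casp4* and *Gsdmd* did not hold under every alternative, as given below for each gene. Among 8401 genes with at least 20 UMIs in cluster 6, 4.7% were at least 2-fold higher and 15.7% at least 2-fold lower, and the median log2 ratio was -0.34, against -0.73 for the 6 members. All 6 members passed the minimum of 20 UMIs in this cluster. *Nlrp3* and *Casp4*, with fewer than 20 control UMIs, passed it through the LPS library.

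**Figure D1:**
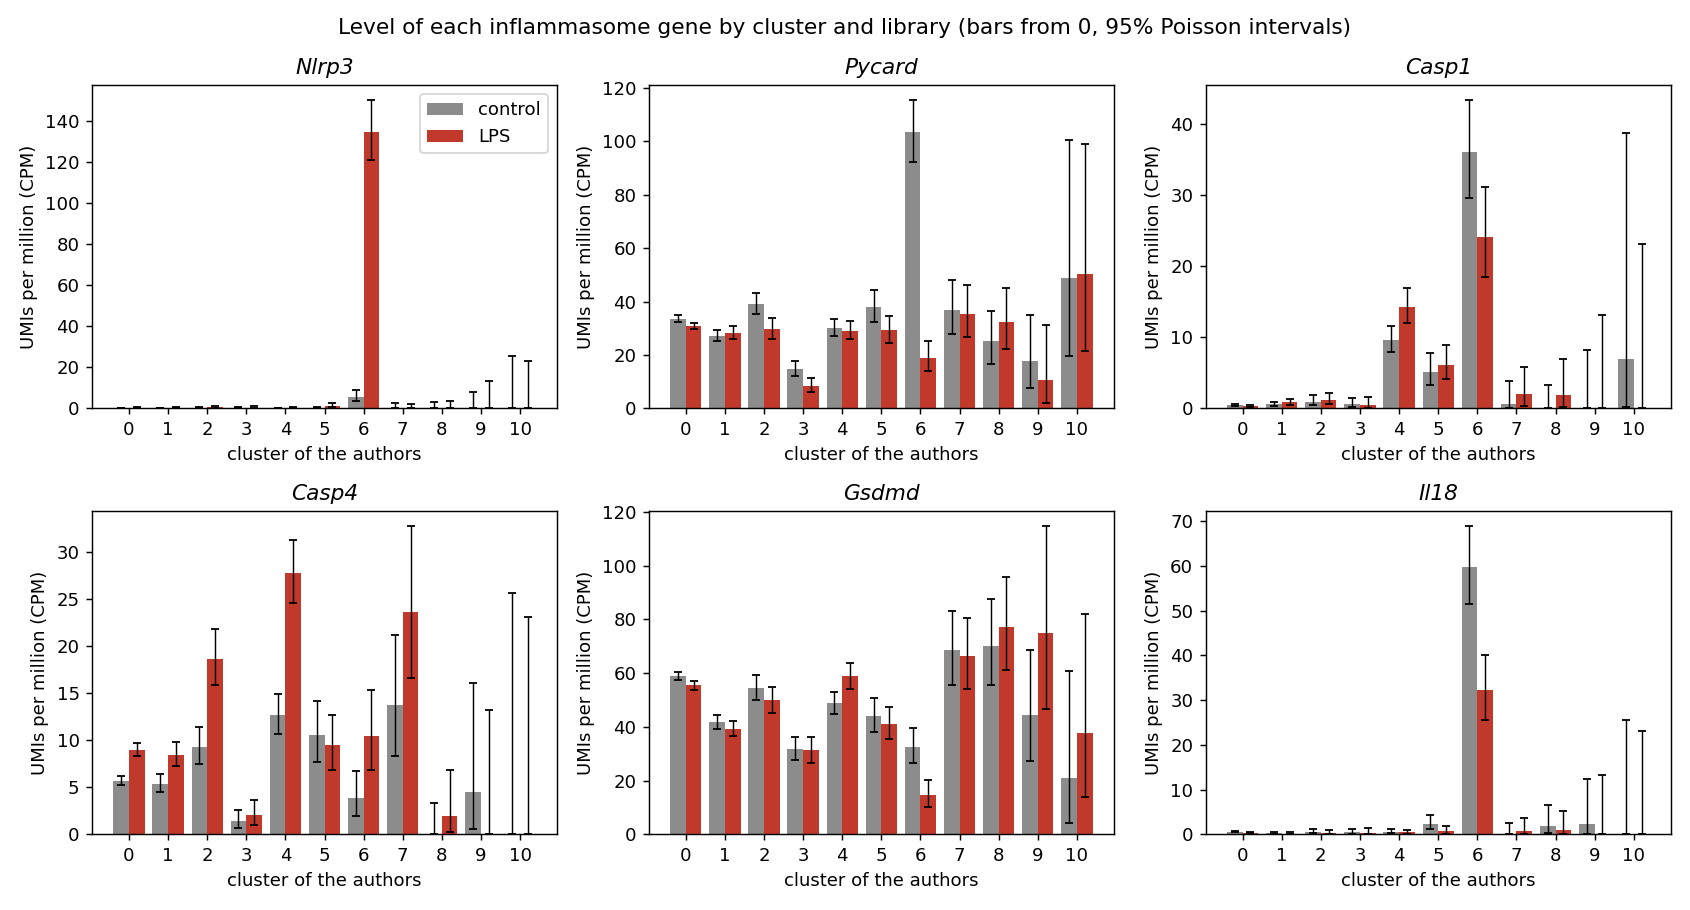
Level of each gene (y axis, CPM, linear from 0) in each of the authors' clusters (x axis), with grey bars for the control and red bars for the LPS library and 95% Poisson intervals. *Nlrp3* and *Il18* stand out in cluster 6 only, *Casp1* in clusters 6, 4 and 5, and *Pycard*, *Gsdmd* and *Casp4* are spread over many clusters. The control bar of *Casp1* in cluster 10, at 6.95 CPM, rests on 1 UMI in 16 cells.

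*Nlrp3* (ENSRNOG00000003170) encodes the sensor. In macrophages it had 18 UMIs in the control library, 5.78 CPM (3.43 to 9.13), and 335 UMIs in the LPS library, 135 CPM (121 to 150). The LPS level was 23.3 times the control level (14.5 to 39.8), and *Nlrp3* ranked 34 of the 8401 genes by ratio. Cluster 6 gave 64.3% of all *Nlrp3* UMIs of the control library and 87.2% of those of the LPS library. Because the libraries differ in depth, shares of cells were compared after random thinning of every cell to 3000 UMIs. A *Nlrp3* UMI was then seen in 2.14% of control macrophages (0.788 to 4.59) and in 29.3% of LPS macrophages (24.1 to 34.9), against 0.0152% and 0.157% in the fibroblasts of cluster 0. Unthinned, 6.41% of control macrophages (median depth 8846 UMIs) and 52.9% of LPS macrophages (median depth 6900) had one. No control macrophage held more than 1 *Nlrp3* UMI, while 43 LPS macrophages held 3 or more, against 37.9 expected if all LPS macrophages shared 1 level. At 0 UMIs there were 137 LPS macrophages, against 108 expected in the same way.

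Outside macrophages *Nlrp3* was rare. In the fibroblasts of cluster 0 it had 5 control and 27 LPS UMIs, 0.0552 and 0.366 CPM, a ratio of 6.63 (2.52 to 22.0). It was the only member at least 2-fold higher in cluster 0, where 3.62% of 13447 genes were, and no member was at least 2-fold lower there, where 11.2% of genes were. *Nlrp3* passed the minimum of 20 UMIs there through its LPS UMIs. The LPS level in cluster 0 was 0.272% of the macrophage level (0.176 to 0.402). The 12 macrophage markers together stood at 0.485% of their macrophage level in the same fibroblasts, with single markers from 0.204% to 1.01%. In the control library *Nlrp3* stood at 0.956% (0.277 to 2.67) and the markers together at 0.658%, with single markers from 0.410% to 1.35%. The summed markers were at 16.6 CPM in the control and 8.88 CPM in the LPS cells of cluster 0. The part of macrophage RNA in the *Nlrp3* level of fibroblasts was not tested. Clusters 7, 8, 9 and 10 had no *Nlrp3* UMI in either library, and clusters 1 to 5 had between 1 and 7 in the LPS library.

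*Pycard* (ENSRNOG00000019675) encodes the adaptor ASC, which joins the sensor to caspase-1. It went the other way from the sensor in macrophages, from 322 UMIs and 103 CPM (92.4 to 115) in the control library to 47 UMIs and 18.9 CPM (13.9 to 25.1) in the LPS library, a ratio of 0.183 (0.132 to 0.249). Of the genes counted in cluster 6, 98.7% had a higher ratio. The macrophage level was 308% of that in cluster 0 in the control and 61.3% (44.9 to 81.8) in the LPS library. Single fibroblast markers in macrophages stood at 28.0% to 42.6% and at 22.7% to 35.8% of theirs. In the macrophages below the median share of fibroblast marker UMIs, the *Pycard* UMIs were 145 and 19 and the ratio 0.156 (0.0911 to 0.252). The part of fibroblast RNA in these values was not tested. The thinned share of macrophages with a *Pycard* UMI was 28.8% in the control library (23.6 to 34.5) and 3.79% in the LPS library (1.91 to 6.69). In control cells 38 macrophages held 3 or more *Pycard* UMIs, with up to 9 in a cell, and in LPS cells 1 did.

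The order of the clusters therefore differed between the libraries. In the control library macrophages had the highest *Pycard* level, and every other cluster with at least 50 cells lay between 14.8 CPM in cluster 3 and 39.1 CPM in cluster 2. In the LPS library the macrophage level was below that of clusters 0, 1, 2, 4, 5, 7 and 8, which ran from 28.4 to 35.5 CPM. Neighbours in that order did not differ beyond their intervals. The macrophage interval overlapped those of clusters 5 (24.5 to 34.6) and 8 (22.4 to 45.3), but not those of clusters 0, 1, 2, 4 and 7. Ratios outside macrophages were closer to 1. They were 0.918 (0.869 to 0.970) in cluster 0, 1.04 (0.932 to 1.17) in cluster 1, 0.762 (0.646 to 0.897) in cluster 2, 0.969 (0.824 to 1.14) in cluster 4 and 0.767 (0.605 to 0.970) in cluster 5. Cluster 3, which holds the ICA cells and cardiomyocytes, had 105 control and 47 LPS UMIs and a ratio of 0.578 (0.401 to 0.823), lower than that of 95% of its genes. Its *Pycard* level was 44.2% of that in cluster 0 in the control and 27.8% in the LPS library. Single fibroblast markers in cluster 3 stood at 18.6% to 46.8% and at 18.3% to 53.2% of theirs. The part of fibroblast RNA in this ratio was not tested. With the levels scaled by the median ratio over genes, the cluster 0 ratio was 1.00 and that in macrophages 0.226.

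**Figure D2:**
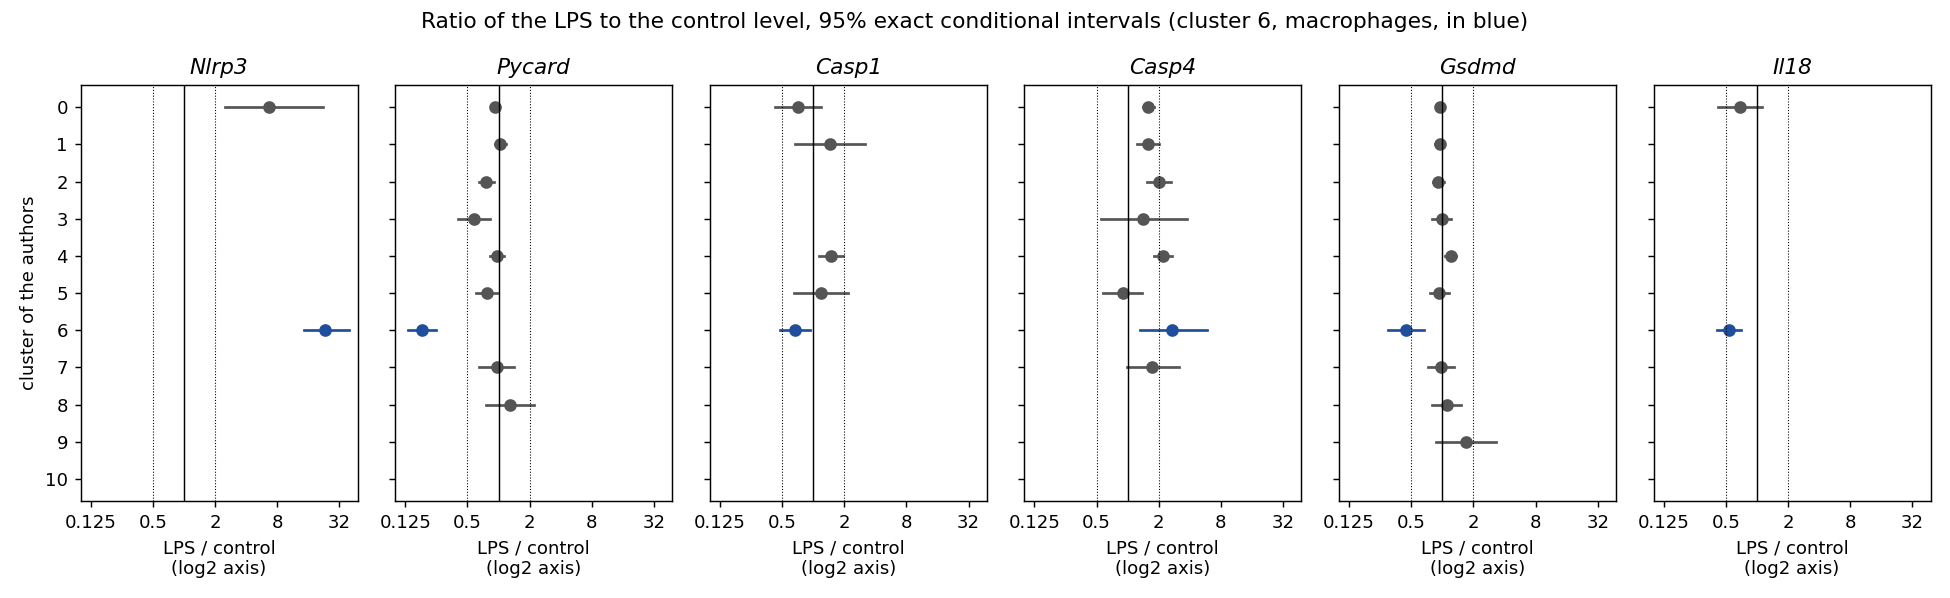
LPS over control ratio of each gene (x axis, log2 axis) by cluster (y axis) with 95% exact conditional intervals, for genes with at least 20 UMIs in the cluster. The solid line marks a ratio of 1 and the dotted lines ratios of 0.5 and 2. Cluster 6 (blue) lies at 23.3 for *Nlrp3* and 0.183 for *Pycard*, while most other *Pycard* and *Gsdmd* ratios lie near 1.

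Within the fibroblasts of cluster 0, *Pycard* UMIs were spread unevenly over the LPS cells. In that library 39 of 7030 cells held 5 or more *Pycard* UMIs, with up to 19 in a cell, against 0.478 cells expected if all cells shared 1 level. These 39 cells gave 291 UMIs, 12.8% of the *Pycard* UMIs of the cluster, and their median depth was 11757 UMIs against 9822 in the cluster. In the control library 8 of 6600 cells held 5 or more, with up to 10, against 2.00 expected, and gave 1.58% of the UMIs. Without the cells with 5 or more, a limit chosen after the data were seen, the cluster 0 level was 33.1 CPM in the control and 27.1 CPM in the LPS library. In cluster 1, a single LPS cell held 24 *Pycard* UMIs. No LPS macrophage held more than 3.

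**Figure D3:**
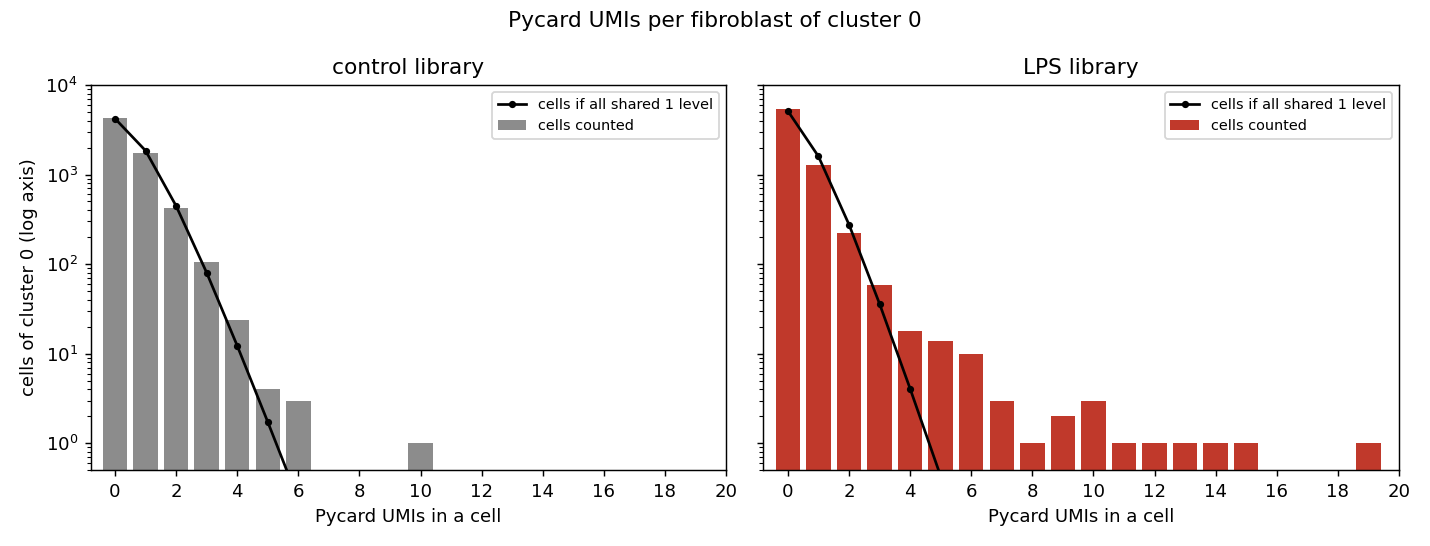
Number of cluster 0 fibroblasts (y axis, log axis) by their *Pycard* UMIs (x axis) in the control (left) and LPS (right) library, with the number expected if all cells shared 1 level as a black line. In both libraries counts lie above the line at 0 UMIs and below it at 1 and 2 UMIs. From 3 UMIs on they lie above it where cells were counted. The LPS library has cells up to 19 UMIs, and at 1 UMI it has 1289 cells against 1595 expected.

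*Casp1* (ENSRNOG00000007372), the protease of the platform, was highest in macrophages, with 112 control UMIs at 36.0 CPM (29.6 to 43.3) and 60 LPS UMIs at 24.1 CPM (18.4 to 31.1). The ratio was 0.671 (0.482 to 0.926), and 65.2% of genes had a higher one. With scaling by the median ratio it was 0.831 (0.597 to 1.15), an interval that held 1. The thinned shares of macrophages were 13.5% (9.75 to 18.1) and 6.55% (3.99 to 10.0).

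Among clusters with at least 50 cells, the endothelial clusters came next in *Casp1* level, and in cluster 4 the direction was the opposite. Cluster 4 had 107 control UMIs at 9.62 CPM (7.88 to 11.6) and 139 LPS UMIs at 14.3 CPM (12 to 16.9), a ratio of 1.48 (1.15 to 1.93). This endothelial level was 26.7% of the macrophage level in the control and 59.2% in the LPS library, while the macrophage markers stood in the same cells at 0.836% and 0.617% of theirs. Cluster 5 had 22 and 28 UMIs, 5.18 and 6.15 CPM, with a ratio of 1.19 (0.656 to 2.18), and single macrophage markers reached 30.4% of their macrophage level there in the control and 16.5% in the LPS library, against 14.4% and 25.5% for *Casp1*. In each library the intervals of clusters 6, 4 and 5 did not overlap. Fibroblasts of cluster 0 had 46 and 27 *Casp1* UMIs, 0.508 and 0.366 CPM, which is 1.41% and 1.52% of the macrophage level. Single macrophage markers there ran from 0.410% to 1.35% in the control and from 0.204% to 1.01% in the LPS library.

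*Casp4* (ENSRNOG00000033697), the LPS-binding protease, had its highest LPS level in endothelial cluster 4, whose interval overlapped that of cluster 7 but not those of cluster 2 and of macrophages. In cluster 4 it had 141 control UMIs at 12.7 CPM (10.7 to 14.9) and 271 LPS UMIs at 27.8 CPM (24.6 to 31.4), a ratio of 2.2 (1.79 to 2.71). Of the 4 members with at least 20 UMIs in this cluster it was the 1 at least 2-fold higher, against 2.95% of 10942 genes, and none was at least 2-fold lower, against 6.27%. The thinned share of cluster 4 cells with a *Casp4* UMI was 4.29% (2.93 to 6.03) in the control and 7.29% (5.58 to 9.32) in the LPS library, and the ratio from thinned cells was 1.76, below the 2-fold limit. Under the other alternatives the *Casp4* ratio in cluster 4 was 2.16 to 2.33. In cluster 5, the other endothelial cluster, the UMIs were 45 and 43 and the ratio was 0.892 (0.574 to 1.39).

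The fibroblasts and the cells of cluster 2, which carried markers of mural cells at 1203 and 958 CPM, also had a higher *Casp4* level in the LPS library. The ratio was 1.58 (1.41 to 1.78) in cluster 0, from 513 to 662 UMIs and from 5.67 to 8.98 CPM. It was 1.57 (1.24 to 1.99) in cluster 1 and 1.73 (0.974 to 3.15) in cluster 7. Thinning gave 7.94 in cluster 7, where 1 of 104 control and 9 of 144 LPS cells then had a *Casp4* UMI. The ratio was 2.01 (1.54 to 2.65) in cluster 2, where 3.01% of 10449 genes were at least 2-fold higher. In cluster 2, *Casp4* was the 1 such member of the 3 with at least 20 UMIs, and none was at least 2-fold lower, as 6.66% of genes were. That call sits at the limit and was lost in 3 of the alternatives, with ratios of 1.89 to 1.95. Macrophages had few *Casp4* UMIs, with 12 (control) and 26 (LPS), at 3.85 CPM (1.99 to 6.73) and 10.5 CPM (6.83 to 15.3), a ratio of 2.71 (1.32 to 5.91). Among the macrophages below the median share of fibroblast marker UMIs, 141 control and 146 LPS cells, the UMIs were 7 and 7 and the ratio was 1.19 (0.356 to 3.97), so the 2-fold call in macrophages was not kept in those cells. It was also lost without the 8% of cells with the most UMIs (1.67) and in thinned cells (1.94). *Casp1*, *Casp4* and *Casp12* are neighbouring protein-coding genes of 1 family in RefSeq, and how reads shared between them were counted is not given in the sources used here.

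*Gsdmd* (ENSRNOG00000007728) encodes the pore-forming protein that both proteases cleave. It was present in every cluster, and in both libraries macrophages were among the lowest. Fibroblasts of cluster 0 had 5341 control UMIs at 59.0 CPM and 4095 LPS UMIs at 55.5 CPM, a ratio of 0.941 (0.903 to 0.980) that became 1.03 with scaling by the median ratio. The ratio was 1.21 (1.07 to 1.36) in endothelial cluster 4, from 48.7 to 58.9 CPM, and 1.06 in thinned cells. Under the other alternatives it was 1.19 to 1.28. In clusters 1, 2, 3, 5, 7, 8 and 9 every interval held 1.

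In macrophages *Gsdmd* had 101 control UMIs at 32.4 CPM (26.4 to 39.4) and 36 LPS UMIs at 14.5 CPM (10.1 to 20.05), a ratio of 0.447 (0.296 to 0.659). With scaling by the median ratio it was 0.553, and the 2-fold call was lost. The control level was 54.9% (44.7 to 66.9) of that in cluster 0, above the 28.0% to 42.6% of the 9 fibroblast markers. The LPS level was 26.1% (18.2 to 36.2), within the 22.7% to 35.8% of those markers, so it could not be told apart from RNA of fibroblasts. In the macrophages below the median share of fibroblast marker UMIs, the UMIs were 38 and 6 and the ratio 0.188 (0.0648 to 0.447). The fibroblast markers summed to 1723 CPM in these control cells and 986 CPM in these LPS cells. In all macrophages they summed to 3999 and 3036 CPM, so the split lowered them unequally in the libraries.

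*Il18* (ENSRNOG00000009848), the cytokine of the group, was a macrophage gene in these cells. It had 186 control UMIs at 59.7 CPM (51.4 to 68.9) and 80 LPS UMIs at 32.2 CPM (25.5 to 40.1) in cluster 6, which gave 69.1% and 64.0% of all its UMIs. The ratio was 0.539 (0.409 to 0.704), and 0.667 (0.507 to 0.871) with scaling by the median ratio. The thinned share of macrophages with an *Il18* UMI was 19.9% (15.4 to 25.1) in the control and 7.24% (4.54 to 10.9) in the LPS library. Over all other clusters together the *Il18* level was 0.930% (0.709 to 1.21) and 1.12% (0.758 to 1.63) of the macrophage level, within the range of single macrophage markers, which ran from 0.444% to 2.36% and from 0.231% to 1.46%.

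**Figure D4:**
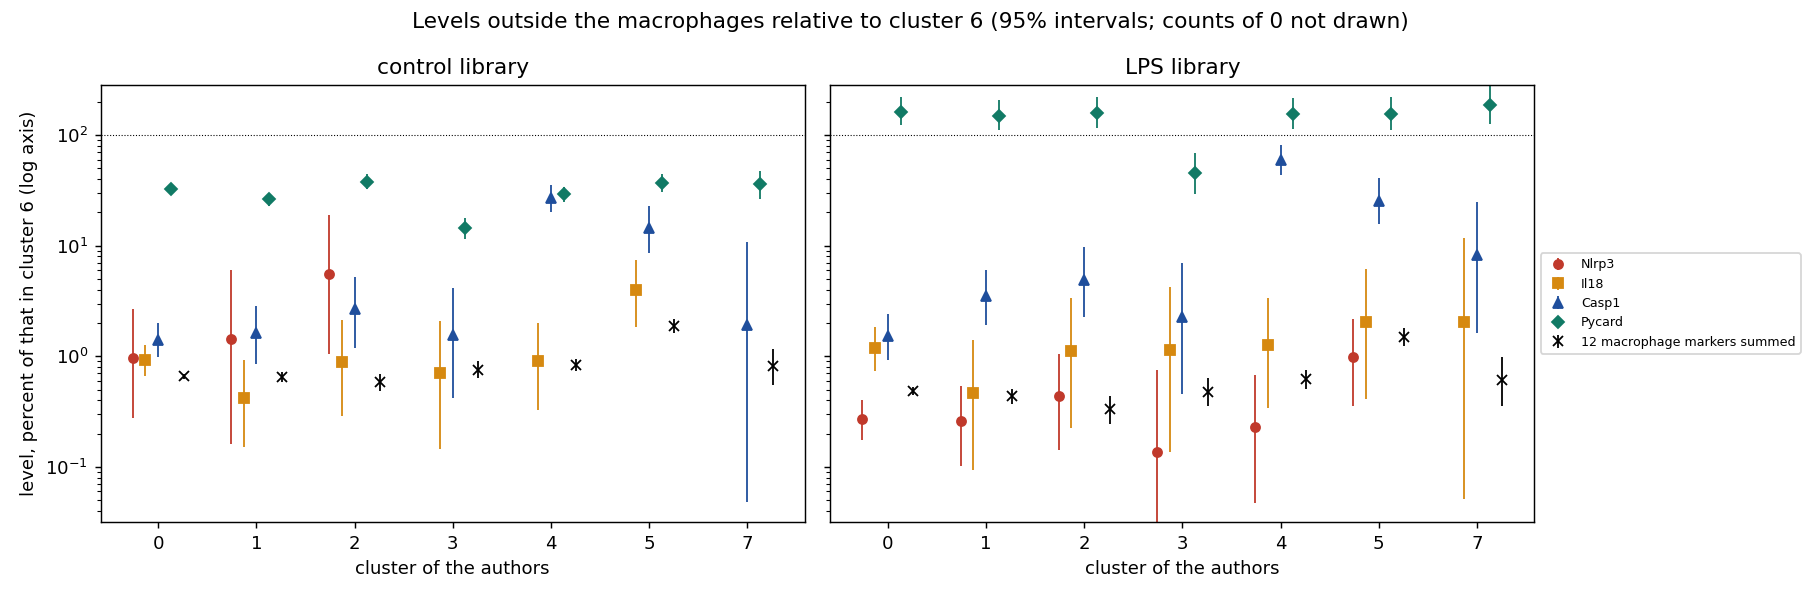
Level of *Nlrp3*, *Il18*, *Casp1*, *Pycard* and the 12 summed macrophage markers in other clusters (x axis) as a percent of the level in macrophages of the same library (y axis, log axis), with 95% intervals; counts of 0 are not drawn. *Casp1* lies above the summed markers in every cluster drawn, though some of its intervals reach them, and is highest in endothelial clusters 4 and 5. *Il18* lies nearer to the summed markers, and *Pycard* is above 100% in most clusters of the LPS library.

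After thinning, at least 1 of the 6 genes was seen in 53.7% of control and 43.8% of LPS macrophages. At least 2 of the 6 were seen in the same cell in 16.0% of control and 7.24% of LPS macrophages. In the fibroblasts of cluster 0 the shares with at least 1 were 26.3% and 24.1%, and with at least 2 they were 2.23% and 2.15%. Free RNA and the low depth after thinning both enter these shares, and their part was not tested.

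**Figure D5:**
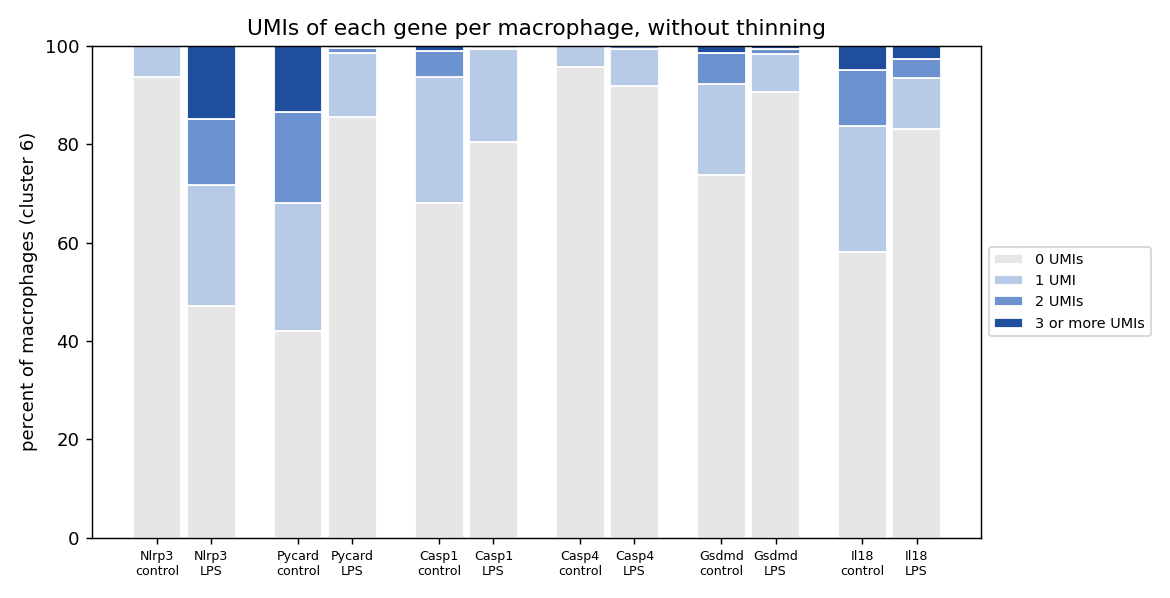
Percent of macrophages (y axis, linear from 0 to 100) with 0, 1, 2 or 3 or more UMIs of each gene in the control and LPS libraries, without thinning. Cells with at least 1 UMI went from 6.41% to 52.9% for *Nlrp3* and from 58.0% to 14.4% for *Pycard*.

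Other genes of the pathway were taken from a list of 26, of which 24 were found, 1 of them with a second identifier. In macrophages 13 of the 25 identifiers had at least 20 UMIs, of which 5 were at least 2-fold higher in the LPS library and 0 at least 2-fold lower, against the 4.7% and 15.7% of all genes. The 5 were the cytokines *Il1b* and *Il1a*, the guanylate-binding proteins *Gbp2* and *Gbp5* and the sensor *Nlrc4*. *Il1a*, *Gbp5* and *Nlrc4* had fewer than 20 UMIs in the control library, so they passed the minimum through the LPS library. The list was chosen with earlier results of these data known, so the count is a description. *Il1b*, which encodes the other cytokine that caspase-1 matures, had 119 control UMIs at 38.2 CPM and 19685 LPS UMIs at 7919 CPM. The ratio was 207 (173 to 250). *Il18*, at 0.539, lay on the other side of 1. *Il1a* had 2 and 123 UMIs, with a ratio of 77.1 (20.9 to 643).

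Among the other sensors, *Nlrc4* had 11 control and 37 LPS UMIs in macrophages, a ratio of 4.21 (2.11 to 9.16), and *Nlrp1a* had 27 and 13, a ratio of 0.603 (0.286 to 1.21). *Aim2* and *Mefv* had at most 3 UMIs in each library, and *Nlrp6* and *Nlrp12* had none. *Nlrp1b* and *Naip6* were not analysed here. In endothelial cluster 4 *Nlrc4* was at least 2-fold lower in the LPS library, as 6.27% of 10942 genes were.

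Of the genes linked to activation of NLRP3, *Gbp5* went from 5 to 396 UMIs in macrophages, a ratio of 99.2 (42.2 to 307), and *Gbp2* from 30 to 162, a ratio of 6.77 (4.56 to 10.4). The same 2 genes were higher in cluster 0, at 26.6 (22.0 to 32.5) and 7.44 (6.77 to 8.18), and in cluster 4, at 12.6 (10.4 to 15.3) and 11.6 (10.3 to 13.1). *Txnip*, whose product binds thioredoxin, had a ratio of 1.20 (0.952 to 1.52) in macrophages but 0.477 (0.420 to 0.541) in cluster 0 and 0.358 (0.306 to 0.417) in cluster 4. *Nek7*, a kinase needed for NLRP3 assembly, had 1 UMI in macrophages over both libraries, and 45 and 17 in cluster 0. The channel *Panx1* had 20 and 10 UMIs in macrophages, and *P2rx7*, the ATP receptor, had 1 and 0.

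Of the other proteases and the membrane rupture protein, *Casp8*, *Casp12* and *Gsdme* had at most 2 UMIs per library in macrophages. *Ninj1*, whose product ruptures the membrane after pores form, was high in macrophages, at 1262 and 1025 CPM, a ratio of 0.812 (0.772 to 0.854), and was higher in the LPS library in cluster 0, at 1.38 (1.36 to 1.40), and cluster 4, at 1.20 (1.16 to 1.25). The antagonists differed as well. *Il1rn*, the interleukin-1 receptor antagonist, had a ratio of 0.994 (0.890 to 1.11) in macrophages, from 235 to 233 CPM. *Il18bp*, which binds interleukin-18, had few UMIs in macrophages, 26 and 15, and in cluster 0 went from 237 to 379 UMIs, a ratio of 1.96 (1.66 to 2.32). *Il18rap*, a chain of the interleukin-18 receptor, had 17 control and 107 LPS UMIs in cluster 0, a ratio of 7.72 (4.6 to 13.7), whereas *Il18r1*, the other chain, had 4 and 2. In cluster 0, *Il1b* had 19 and 1733 UMIs, and its LPS level there was 0.297% of that in macrophages, against 0.485% for the macrophage markers.

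The genes with the level pattern most like that of each member were found by the Pearson correlation of log2(CPM + 1) over 20 points, 10 clusters in both libraries, among 11303 genes. Points of 1 library share its depth and free RNA, so this is a description. *Rgs1* (r = 0.99), *F2rl2* (0.98) and *Tnfrsf14* (0.96) were most like *Nlrp3*. *Lrrc25* (0.98), *Tnfaip8l2* (0.96) and *Trem2* (0.96) were most like *Il18*, and *Hcst*, *Arpc4* and *Nrros* (0.93 to 0.94) most like *Casp1*. For *Pycard* (*Lsm1*, *Mgat2*, *Srp14*), *Casp4* (*Magohb*, *Sin3b*, *Cfap45*) and *Gsdmd* (*RGD1562747*, *Itgae*, *Tmem18*) the highest r were 0.87, 0.87 and 0.88. Between members the highest value was 0.79, for *Nlrp3* with *Il18*, and the lowest -0.77, for *Nlrp3* with *Gsdmd*. *Nlrp3* and *Il18* were both highest in macrophages and low elsewhere, but their LPS over control ratios in macrophages were 23.3 and 0.539.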

How the data were processed

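The deposited values are raw counts of UMIs per gene and cell barcode, without normalization by the authors, for 1 LPS and 1 control library made with the 10X Genomics 3′ kit. The submitters' processing notes name Cell Ranger 2.2.0 and Seurat 2.3.4. The genome build and annotation are not given in the sources used here. The authors joined the libraries with RunCCA and clustered the cells with FindClusters at a resolution of 0.5, and their cluster and cell type per cell were used as deposited. The 2 control and 8 LPS cells that had no cluster were left out, and no doublet caller was run.

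UMIs were summed per cluster and library with pandas 2.3.3, scipy 1.17.1 and numpy 2.4.6 under Python 3.11.15. Libraries held 152624585 control and 127580475 LPS UMIs. Counted ratios had 0.5 UMI added to each sum, used genes with at least 20 UMIs over both libraries, and were called at 2-fold. Named genes were the 6 members, a list of pathway genes, marker lists and the 3 genes most like each member. A gene of the pathway list is not reported here. The members and lists were chosen with earlier results of these data known. Intervals and ratios were tested on simulated Poisson counts. These have no spread between cells beyond counting, so the test does not cover such spread.

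Alternatives were the mean of each cell's own CPM, leaving out the 8% of cells with the most UMIs or cells with over 10% mitochondrial UMIs, scaling by the median ratio over genes with at least 50 UMIs, thinning to 3000 or 1500 UMIs, other minimums and a 1.5-fold limit. Leaving out macrophages with more fibroblast marker UMIs, barcodes found in both libraries and cells with 5 or more *Pycard* UMIs were added after the data were seen.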

Additional observations from a re-analysis of the deposited data

Results flagged for a closer look

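Both members below had a higher level in the LPS library in endothelial cluster 4 and a lower level in macrophages of cluster 6, each with 1 library per condition, and the difference between the clusters was not tested. The LPS over control ratio of *Casp1* was 1.48 in cluster 4 and 0.671 in cluster 6. With scaling by the median ratio over genes these values were 1.58 (1.22 to 2.05) and 0.831 (0.597 to 1.15), so the macrophage interval then held 1. The ratio of *Gsdmd* was 1.21 in cluster 4 and 0.447 in cluster 6, and 1.28 and 0.553 with that scaling. The part of fibroblast RNA in these values was not tested. The 9 fibroblast markers stood at 28.1% and 22.0% of their cluster 0 level in cluster 4, and at 33.3% and 27.8% in cluster 6, in the control and LPS library. In cluster 0 itself *Casp1* was at 0.508 and 0.366 CPM and *Gsdmd* at 59.0 and 55.5 CPM, in the same order.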

How the results depend on the processing

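No paired analysis was possible because the study made a single library per condition, which also leaves no replicate to leave out. Of 339 alternative values for 64 results, 265 stayed within counting error of the value reported or, for counts of genes, within 1.5 times, and 72 moved further. Of 221 alternative ratios, 19 lay on the other side of 1 from the one reported. For 17 of these the reported interval already held 1, and the other 2 were the cluster 0 ratios of *Pycard* (1.00) and *Gsdmd* (1.03) with scaling by the median ratio over genes. Thinning each cell to 3000 UMIs, which leaves few UMIs, moved the macrophage ratios of *Casp1* to 0.418, *Pycard* to 0.107, *Gsdmd* to 0.194 and *Il18* to 0.369, the cluster 4 ratios of *Casp4* to 1.76 and *Gsdmd* to 1.06, and the cluster 0 ratios of *Gsdmd* to 0.894 and *Il18* to 0.313. Thinning took *Casp4* below 2-fold in clusters 4, 2 (1.93) and 6 (1.94), and *Casp1* and *Il18* in macrophages past 2-fold lower. It moved *Casp4* in cluster 7 to 7.94, where 1 control cell then had a *Casp4* UMI. Leaving out the 8% of cells with the most UMIs gave *Casp4* ratios of 1.67 in macrophages, 1.89 in cluster 2 and 2.91 in cluster 7, and leaving out shared barcodes gave 1.95 in cluster 2. Without the macrophages above the median share of fibroblast marker UMIs, the ratios were 49.9 for *Nlrp3*, 1.19 for *Casp4* and 0.188 for *Gsdmd*. That *Nlrp3* ratio (19.1 to 185) rests on 4 control and 168 LPS UMIs. Without cells with 5 or more *Pycard* UMIs, the LPS level of *Pycard* in cluster 0 was 27.1 CPM.

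The difference in the share of macrophages with a UMI, LPS minus control, was 46.5 percentage points for *Nlrp3*, -12.4 for *Casp1*, -43.6 for *Pycard*, -17.1 for *Gsdmd* and -25.2 for *Il18* without thinning, and 15.8 for *Nlrp3*, -8.64 for *Pycard*, -1.12 for *Gsdmd* and -6.61 for *Il18* with thinning to 1500 UMIs.

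Of the genes at least 2-fold higher and lower, the counts in cluster 6 were 395 and 1319. With scaling by the median ratio they were 618 and 761. With a minimum of 1 UMI, genes higher and lower numbered 1224 and 3175 in cluster 0, 1113 and 2504 in cluster 2, 1098 and 2448 in cluster 4, and 1249 and 3550 in cluster 6. With a 1.5-fold limit they numbered 952 and 3039, 655 and 1802, 687 and 1820, and 743 and 2859 in the same clusters. With a minimum of 50 UMIs, genes lower numbered 372 in cluster 2, 382 in cluster 4 and 771 in cluster 6. Depth limits, among others, *Casp4* in macrophages and *Nlrp3* outside them, with 12 control and 26 LPS UMIs and with 10 control and 49 LPS UMIs.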
